A study of Homo sapiens with 3 samples.

Results

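The PAX and ZIC genes measured here are 9 transcription factor genes of the early neural tube: PAX2, PAX3, PAX6, PAX7, PAX8, ZIC1, ZIC2, ZIC4 and ZIC5. They were taken as listed, out of 19775 genes on the array, with every probe set that the array annotation assigns to a listed gene and to no other. This gave 25 probe sets, 18 of PAX genes and 7 of ZIC genes, of 54613 non-control probe sets on the array. Expression was measured on 3 Affymetrix arrays of total RNA from cultures of H9, an established human embryonic stem cell line that had been taken off mouse feeder cells and grown as embryoid bodies. The RA astrocytes were harvested at day 210 of differentiation after retinoic acid (RA), a caudalising signal, from day 10 to day 21. The FGF8 astrocytes were harvested at day 210 after FGF8, a fibroblast growth factor that rostral and midbrain-hindbrain organisers secrete, over the same days. The neuroepithelial cells, early neural progenitors, were harvested at day 17 and received no morphogen. The 3 groups share the H9 genotype and held 1 array each, so no difference has a replicate check, no test was possible, and the neuroepithelial array differs from the others in both time and morphogen treatment. In such bulk RNA, fewer cells of a type and less RNA per cell cannot be told apart.

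PAX proteins bind DNA through a paired domain and are placed by dorsal, ventral and head-to-tail signals of the neural tube. PAX3 and PAX7 mark its dorsal wall, PAX6 an intermediate zone and the forebrain and eye, and PAX2 and PAX8 the midbrain-hindbrain border and intermediate neurons. ZIC proteins are zinc finger factors related to the GLI effectors of Hedgehog signalling and mark dorsal neural tissue. ZIC1 and ZIC4 are immediate neighbours on chromosome 3, and ZIC2 and ZIC5 on chromosome 13, in the order of protein-coding genes of GRCh38.p14.

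The cultures carried the markers of their labels. All 10 astrocyte markers looked up, among them GFAP and S100B, were above the floor on the RA array and on the FGF8 array, against 6 on the neuroepithelial array, where GFAP, S100B, AQP4 and NFIX were at the floor. The floor was the median normalized signal of all non-control probe sets, 26.4 (log2 4.72), below which values were not read. All 10 neuroepithelial markers were above it on the neuroepithelial array, against 8 on each astrocyte array, where LIN28A and LIN28B were at the floor. Array controls also differed. The ACTB 3' to 5' signal ratio, a measure of RNA length, was 6.67 on the RA array, 6.63 on the FGF8 array and 1.33 on the neuroepithelial array. Hybridisation spikes were 2.40-fold brighter on the RA array than on the FGF8 array and 2.62-fold brighter than on the neuroepithelial array. Of 9 neuronal markers, 7 were above the floor on the RA array, 7 on the FGF8 array and 9 on the neuroepithelial array, with summed signals of 14425, 20296 and 17231 in that order. The 5 oligodendrocyte lineage markers on the array summed to 901 on the RA array, 6180 on the FGF8 array and 282 on the neuroepithelial array, with MOG at the floor on all 3 arrays, SOX10 on both astrocyte arrays, and MBP on the FGF8 and neuroepithelial arrays. The 3 pluripotency markers on the array summed to 123 on the RA array, 114 on the FGF8 array and 1380 on the neuroepithelial array, with ZFP42 at the floor on all 3 arrays and NANOG above it on the FGF8 array alone. The part of these controls and markers in the differences below was not tested.

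The results turn on 4 genes: PAX3 and PAX7, which were higher in RA astrocytes than in either other culture, ZIC2, which was lower there, and ZIC1, which stayed within 2-fold. For these the 250 bases before the gene start are shown, from RefSeq annotation of GRCh38.p14, 5′ to 3′ on the gene's strand. Capitals mark CCAAT boxes, CCAAT on either strand. The PAX3 window lies at chr2:222298999-222299248, minus strand. The PAX7 window lies at chr1:18630596-18630845, plus strand. The ZIC1 window lies at chr3:147409115-147409364, plus strand, and the ZIC2 window at chr13:99981534-99981783, plus strand.
PAX3: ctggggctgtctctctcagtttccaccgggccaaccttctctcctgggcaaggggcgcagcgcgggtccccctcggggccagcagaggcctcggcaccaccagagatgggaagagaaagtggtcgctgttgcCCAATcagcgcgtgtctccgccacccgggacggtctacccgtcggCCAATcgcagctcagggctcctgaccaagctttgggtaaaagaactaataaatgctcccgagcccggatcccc
PAX7: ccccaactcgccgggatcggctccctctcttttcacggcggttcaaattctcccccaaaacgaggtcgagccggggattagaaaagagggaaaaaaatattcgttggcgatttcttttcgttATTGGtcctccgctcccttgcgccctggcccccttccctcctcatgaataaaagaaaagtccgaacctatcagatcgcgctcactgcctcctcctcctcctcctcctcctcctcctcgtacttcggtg
ZIC1: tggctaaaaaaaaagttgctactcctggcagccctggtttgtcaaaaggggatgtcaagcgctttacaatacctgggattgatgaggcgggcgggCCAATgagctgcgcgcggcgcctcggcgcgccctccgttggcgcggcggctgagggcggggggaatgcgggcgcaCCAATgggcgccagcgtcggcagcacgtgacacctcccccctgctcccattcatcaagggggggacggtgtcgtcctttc
ZIC2: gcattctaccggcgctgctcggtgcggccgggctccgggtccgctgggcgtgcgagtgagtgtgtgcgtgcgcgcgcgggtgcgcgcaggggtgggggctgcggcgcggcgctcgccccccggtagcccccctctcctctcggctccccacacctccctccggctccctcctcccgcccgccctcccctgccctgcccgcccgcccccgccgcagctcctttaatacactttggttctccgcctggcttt
The PAX3 window held 2 CCAAT boxes, the PAX7 window 1, the ZIC1 window 2 and the ZIC2 window 0. All 9 genes had an entry, with 23 windows in all because some genes have several starts. CCAAT was present in 12 of these 23 windows (52.2%), several of which belong to the same gene, and in 32% of all 35116 promoter windows of the same length. The other 3 motifs searched on both strands, with overlapping matches counted, were TATAAA, the nuclear receptor half-site AGGTCA and the GLI-type site GGGTGGTC. They were found in 0 of the 23 windows. Over all windows, 10.7% held TATAAA, 12.1% AGGTCA and 0.849% GGGTGGTC. CpG dinucleotides numbered 17 in the PAX3 window, 18 in the PAX7 window, 23 in the ZIC1 window and 31 in the ZIC2 window, against a median of 11 over all windows.

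Of the 25 probe sets, 14 were above the floor on at least 1 array, 6 of them on all 3 arrays, and 11 were at the floor throughout. Each gene had at least 1 probe set above the floor. Each was represented by its main probe set, the one with the highest mean signal, with the cross-hybridising type (_x_at) set aside where the gene had another. Levels are given as quantile-normalized signal, and where only 1 of the arrays compared was above the floor, the difference is a bound on its size, written as at least so many fold.

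**Figure D1:**
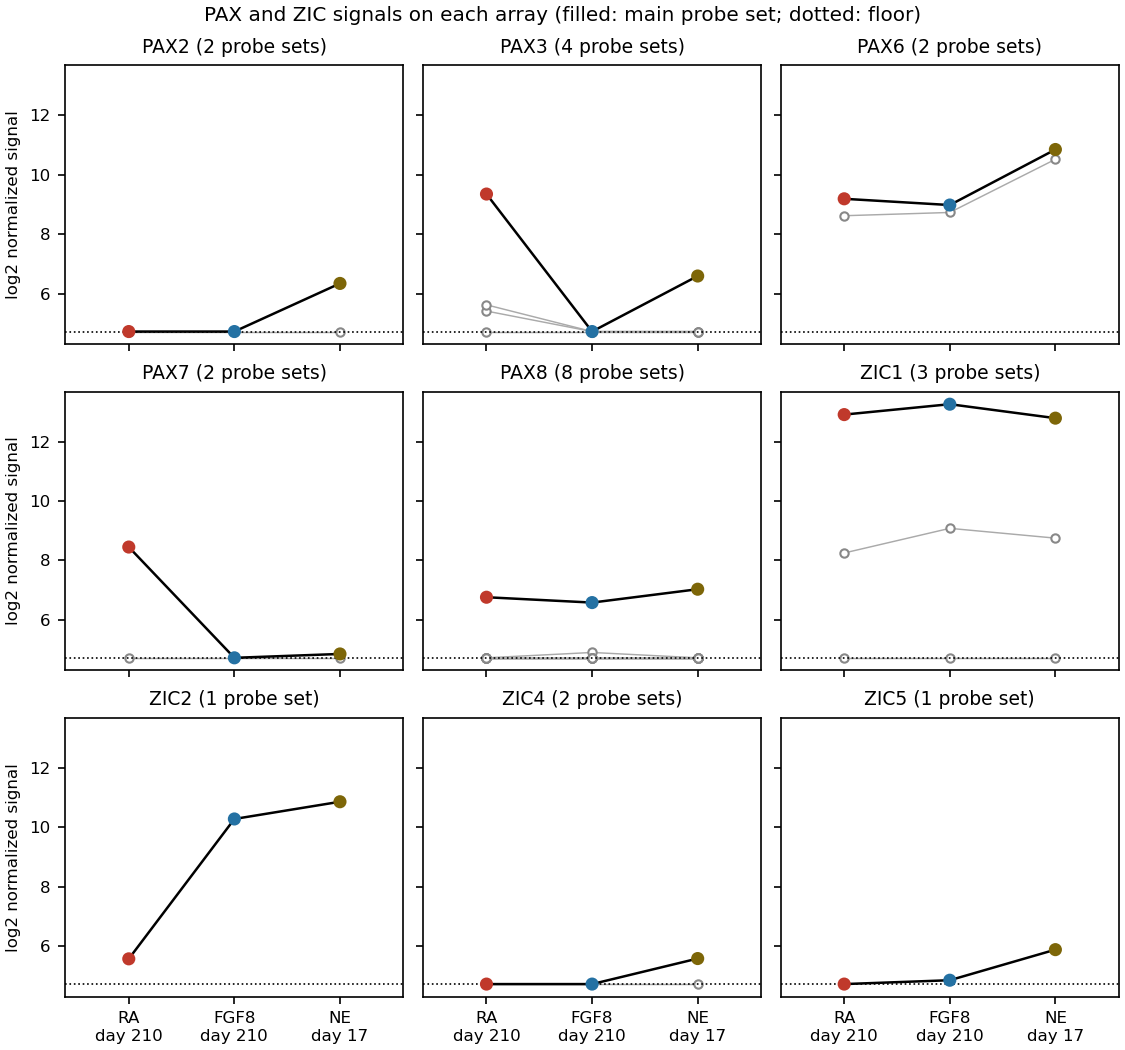
Log2 normalized signal (y axis) of all 25 PAX and ZIC probe sets on the RA, FGF8 and neuroepithelial (NE) arrays (x axis), 1 array per group, with main probe sets filled, others open, and values below the floor of 4.72 (dotted) drawn at it. PAX3 and PAX7 stand highest on the RA array, ZIC2 lowest there, and the main ZIC1 probe set lies between 12.79 and 13.26 on every array.

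PAX3, the dorsal neural tube and neural crest factor, was high in RA astrocytes and not read above the floor in FGF8 astrocytes. Its main probe set (231666_at) had a signal of 653 in RA astrocytes, was at the floor in FGF8 astrocytes and had a signal of 96.6 in neuroepithelial cells. The RA array was thus highest, the neuroepithelial array intermediate and the FGF8 array lowest. PAX3 was 6.76-fold higher in RA astrocytes than in neuroepithelial cells, at least 3.66-fold lower in FGF8 astrocytes than in neuroepithelial cells, and at least 24.8-fold higher in RA than in FGF8 astrocytes. Of its other 3 probe sets, 207680_x_at had a signal of 42.6 and 216059_at a signal of 49.3 on the RA array, and both were at the floor on the FGF8 and neuroepithelial arrays. These gave bounds of at least 1.62-fold and at least 1.87-fold higher in RA astrocytes in either comparison. The remaining PAX3 probe set (207679_at) was at the floor on all 3 arrays. The lower FGF8 call rests on the main probe set, and with the mean of all PAX3 probe sets the difference of FGF8 astrocytes from neuroepithelial cells was -0.28 on the log2 scale.

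PAX7, the close relative of PAX3 in the dorsal neural tube and the midbrain roof, was also highest on the RA array. Its main probe set (1556638_at) had a signal of 349 in RA astrocytes, was at the floor in FGF8 astrocytes, and had a signal of 28.8 in neuroepithelial cells, just above the floor. It was 12.1-fold higher in RA astrocytes than in neuroepithelial cells and at least 13.2-fold higher than in FGF8 astrocytes. Between FGF8 astrocytes and neuroepithelial cells only a bound of at least 1.09-fold lower could be given, so these are not ordered beyond the floor. The second PAX7 probe set (208060_at) was at the floor on all 3 arrays. Among 10663 genes measured above the floor on both arrays, PAX7 ranked 117 and PAX3 ranked 282 from the top of the difference between RA astrocytes and neuroepithelial cells.

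PAX3 and PAX7 also act in skeletal muscle progenitors, and PAX3 in neural crest and melanocytes. The myogenic genes MYF5, MYOD1, MYOG, MYH3 and CKM were at the floor on all 3 arrays. DES, an intermediate filament of muscle that other cells also make, had a signal of 254 in RA astrocytes, 78 in FGF8 astrocytes and 5.99, under the floor, in neuroepithelial cells. Of 11 muscle genes on the array, 3 could be compared between RA astrocytes and neuroepithelial cells, with DES at least 2-fold higher and ACTA1 at least 2-fold lower. The FGF8 astrocytes likewise allowed 3, again with DES higher and ACTA1 lower. Over all genes 18.3% were higher and 14.9% lower in RA astrocytes, and 12.9% higher and 10.5% lower in FGF8 astrocytes. SOX10, the neural crest and oligodendrocyte factor, was at the floor on both astrocyte arrays and above it on the neuroepithelial array. The 3 melanocyte markers on the array summed to a signal of 186 in RA astrocytes, 132 in FGF8 astrocytes and 1013 in neuroepithelial cells, and TYR was above the floor on the RA array alone.

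PAX6, which drives forebrain and eye development and neural progenitor identity, was lower in both astrocyte cultures. Its main probe set (205646_s_at) had a signal of 584 in RA astrocytes, 506 in FGF8 astrocytes and 1840 in neuroepithelial cells. Its other probe set (235795_at) had 394 in RA astrocytes, 424 in FGF8 astrocytes and 1465 in neuroepithelial cells. Both probe sets were above the floor on every array and gave the neuroepithelial array the highest level. PAX6 was 3.15-fold lower in RA astrocytes and 3.64-fold lower in FGF8 astrocytes than in neuroepithelial cells on the main probe set, and 3.72-fold and 3.45-fold lower on the other. The astrocyte cultures differed by 0.21 on the log2 scale, RA minus FGF8, on the main probe set and by -0.11 on the other, so their order differed between the probe sets.

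PAX2, a gene of the midbrain-hindbrain border, optic stalk and kidney, was read on the neuroepithelial array alone. Its main probe set (206228_at) had a signal of 81 in neuroepithelial cells and was at the floor in RA and FGF8 astrocytes, which makes it at least 3.07-fold lower in each. The second PAX2 probe set (206229_x_at) was at the floor throughout. PAX8, a relative of PAX2 known from thyroid, kidney and the midbrain-hindbrain border, had the most probe sets, 8, of which 6 were at the floor on all arrays. Its main probe set (121_at) had a signal of 108 in RA astrocytes, 95.3 in FGF8 astrocytes and 130 in neuroepithelial cells, all within 2-fold of each other. Another (213917_at) was above the floor on the FGF8 array alone, at 29.8. Only 1 PAX8 probe set of 8, the main one, was thus above the floor on all 3 arrays. The 3 probe sets of the antisense gene PAX8-AS1 were at the floor on all arrays.

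ZIC2, which is needed for forebrain midline formation and is active in dorsal neural tissue, was far lower in RA astrocytes than in either other culture. Its only probe set (223642_at) had a signal of 47.6 in RA astrocytes, 1241 in FGF8 astrocytes and 1853 in neuroepithelial cells. The RA array stood apart from the other arrays, which were within 2-fold of each other. ZIC2 was 38.9-fold lower in RA astrocytes than in neuroepithelial cells, 26.1-fold lower than in FGF8 astrocytes, and 1.49-fold lower in FGF8 astrocytes than in neuroepithelial cells. From the lowest, it ranked 14 of 10663 genes in the first of these differences and 8 of 10944 in the second.

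**Figure D2:**
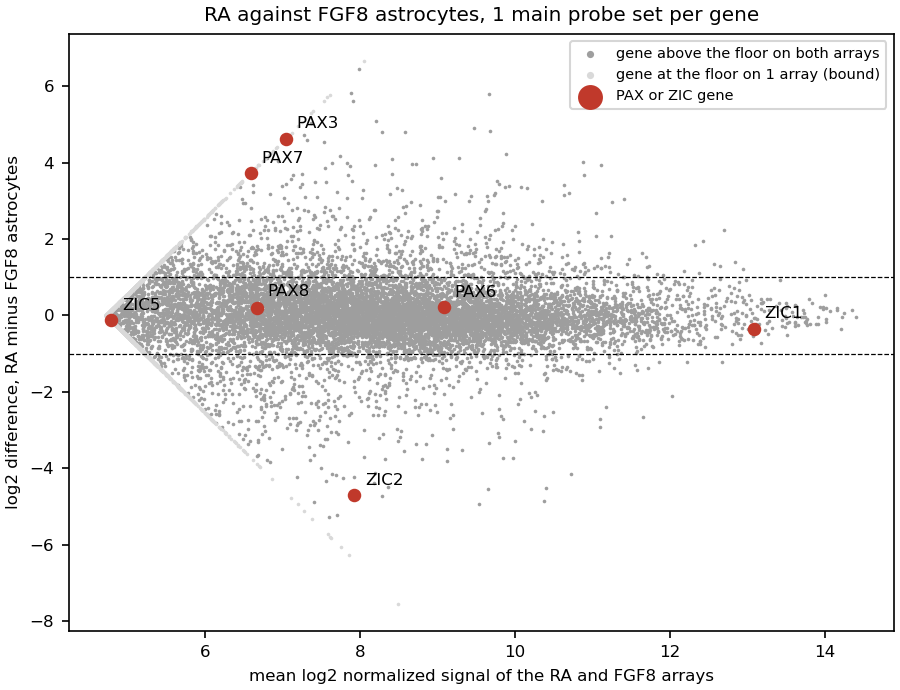
Log2 difference between RA and FGF8 astrocytes (y axis, RA minus FGF8) against their mean log2 signal (x axis), 1 point per gene, grey for genes above the floor on both arrays and pale for bounds, with 2-fold as dashed lines. PAX3 at 4.63 and PAX7 at 3.73 lie on the edge of bounds above, ZIC2 at -4.71 lies below, and ZIC1, PAX6, PAX8 and ZIC5 lie between the dashed lines.

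ZIC1, a dorsal neural tube and cerebellar factor, differed by less than 2-fold between the cultures on its own probe sets above the floor. A probe set that it shares with LOC440982 (241440_at) differed by more and is given further below. Its main probe set (206373_at) had a signal of 7686 in RA astrocytes, 9791 in FGF8 astrocytes and 7092 in neuroepithelial cells. A second probe set (236896_at) had 304 in RA astrocytes, 543 in FGF8 astrocytes and 431 in neuroepithelial cells. On each probe set the 3 values lay within 2-fold of each other and the FGF8 array was highest, although with the deposited intensities the RA array was above it by 0.01 on the log2 scale on the main probe set. The difference of RA astrocytes from neuroepithelial cells was 0.12 on the log2 scale on the main probe set and -0.51 on the second, and that of FGF8 astrocytes was 0.47 and 0.33. The difference of RA from FGF8 astrocytes was -0.35 on the main probe set and -0.84 on the second. With array medians set equal, ZIC1 just reached 2-fold in FGF8 astrocytes against neuroepithelial cells. The third probe set (234716_at) was at the floor on all 3 arrays.

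ZIC5, the neighbour of ZIC2, and ZIC4, the neighbour of ZIC1, lay close to the floor. The ZIC5 probe set (1552938_at) was at the floor in RA astrocytes and had a signal of 28.9 in FGF8 astrocytes and 58.9 in neuroepithelial cells. ZIC5 was at least 2.23-fold lower in RA astrocytes and 2.04-fold lower in FGF8 astrocytes than in neuroepithelial cells, and the FGF8 value just missed 2-fold, at -0.94, with array medians set equal. The main ZIC4 probe set (236711_at) was at the floor in RA and FGF8 astrocytes and had a signal of 47.7 in neuroepithelial cells, a bound of at least 1.81-fold lower in each. The other ZIC4 probe set (211463_at) was at the floor throughout. Within each neighbouring pair the levels of the partners cannot be compared with each other, since they come from different probe sets.

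**Figure D3:**
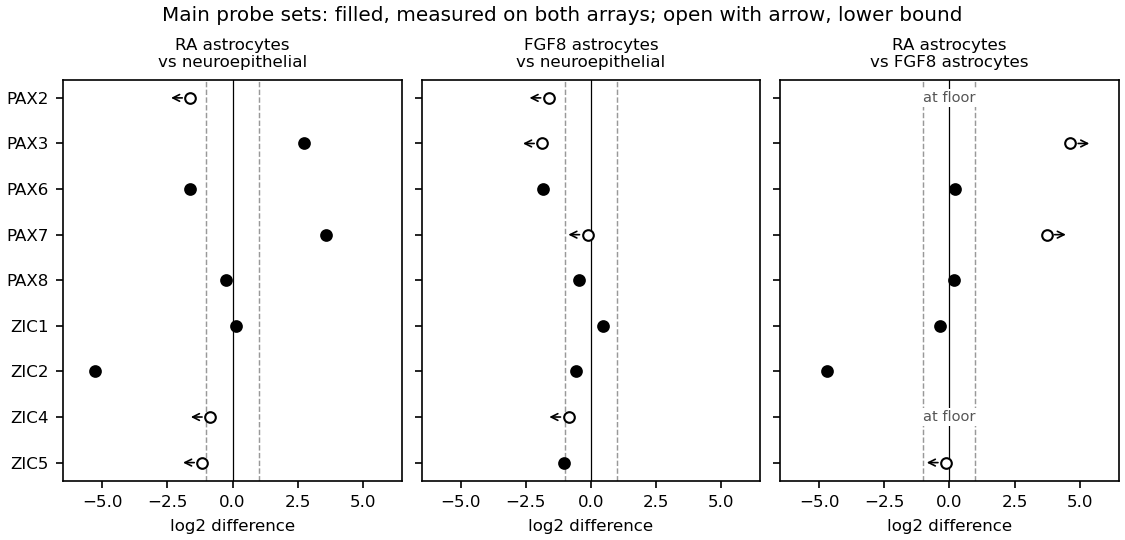
Log2 difference (x axis) of the main probe set of each gene (y axis) in the 3 comparisons, filled where measured on both arrays and open with an arrow where 1 side was at the floor, with dashed lines at 2-fold. PAX3 and PAX7 are the genes right of the lines in RA astrocytes against neuroepithelial cells, and ZIC2 at -5.28 is farthest left.

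Counted over probe sets, 13 of the 25 could be compared between RA astrocytes and neuroepithelial cells: 2 were at least 2-fold higher, the main probe sets of PAX3 and PAX7, and 5 at least 2-fold lower, those of PAX6 (both), PAX2, ZIC2 and ZIC5. Over all 25854 single-symbol probe sets compared, 16% were at least 2-fold higher and 16% at least 2-fold lower. The members' median log2 difference was -0.51, against -0.01 over all. Between FGF8 astrocytes and neuroepithelial cells, 12 could be compared, of which 0 were at least 2-fold higher and 5 lower, those of PAX6 (both), PAX2, PAX3 and ZIC5. The shares over all 25293 compared were 11.3% higher and 11.5% lower, and the medians were -0.72 for the members and 0.00 over all. These comparisons share the neuroepithelial array. Between RA and FGF8 astrocytes, 12 could be compared, with 2 at least 2-fold higher (PAX3 and PAX7) and 1 lower (ZIC2). The shares over all 25003 compared were 8.99% higher and 7.94% lower, and the medians were 0.04 for the members and -0.01 over all. Members at the floor on 1 of the arrays compared could enter only through the array where they were high, so these counts describe the members and carry no test.

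For the members whose main probe set spanned at least 2-fold, which leaves out PAX8, ZIC1 and ZIC4, the nearest genes were found by the distance between mean-centred log2 values over the 3 arrays. The search covered 5445 genes that spanned at least 2-fold. The nearest to PAX3 was IRX3, a homeobox gene of the posterior neural plate, at a distance of 0.27, followed by PDLIM3 at 0.41 and ANKS1B at 0.46. The log2 values of IRX3 were 9.03 in RA astrocytes, the floor in FGF8 astrocytes and 6.26 in neuroepithelial cells. The nearest to PAX7 were DIRAS2 at 0.12, SH3BGR at 0.15 and HOXA2, a hindbrain HOX gene, at 0.15. HOXA2 had a log2 value of 8.53 in RA astrocytes and lay at the floor on the other arrays. The nearest to ZIC2 were the chemokine CCL2 at 0.08, the forebrain zinc finger factor SP8 at 0.41 and FANCI, a DNA repair gene, at 0.55. SP8 had log2 values of 4.96 in RA astrocytes, 10.24 in FGF8 astrocytes and 10.40 in neuroepithelial cells. The nearest to PAX6 were VRK2, UGDH and CSRNP3, at 0.04 to 0.07, and to ZIC5 AP1AR, APOO and NDUFAF4, at 0.02 to 0.03. PAX2 was nearest to INHBA, PAPPA2 and PRSS33, which were likewise at the floor on both astrocyte arrays. Values under the floor entered these distances at the floor, so such distances depend on where it was set. Among the members this holds for PAX3 and PAX7 in FGF8 astrocytes, PAX2 in both astrocyte cultures and ZIC5 in RA astrocytes. Among their nearest genes it holds for IRX3, ANKS1B and DIRAS2 in FGF8 astrocytes and CCL2 in RA astrocytes. HOXA2 was at the floor in FGF8 astrocytes and neuroepithelial cells, and INHBA, PAPPA2 and PRSS33 in both astrocyte cultures. With 3 arrays, such likeness is a description.

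Other PAX genes gave no signal that could be read: PAX1, PAX4, PAX5 and PAX9 were at the floor on all 3 arrays. Among genes of the roof plate and dorsal progenitors, 0 were at least 2-fold higher in any comparison. Of 16 on the array, 10 could be compared between RA astrocytes and neuroepithelial cells, of which 0 were at least 2-fold higher and 5 lower, with a median log2 difference of -1.06. Over all 13419 genes compared, 18.3% were at least 2-fold higher and 14.9% lower, with a median of 0.07. BMP4, a roof plate signal, was at least 9.95-fold lower in RA astrocytes and in FGF8 astrocytes, and the roof plate homeobox gene MSX1 at least 6.18-fold lower in each. BAMBI, a decoy receptor for BMP, was at least 8.42-fold lower in RA and 3.34-fold lower in FGF8 astrocytes, and GLI3, a Hedgehog effector, 3.03-fold lower in RA astrocytes. In FGF8 astrocytes, 5 of 11 compared were lower and 0 higher (median -0.73), BMP7 by 2.75-fold among them, against 12.9% higher and 10.5% lower over 13065 genes with a median of 0.05. Between the astrocyte cultures, 1 of 6, BAMBI, was past 2-fold, against 9.86% higher and 7.96% lower over 13007 genes.

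Among the genes of the midbrain-hindbrain border, where PAX2, PAX5 and PAX8 act, 3 of 6 compared were higher in RA astrocytes than in neuroepithelial cells and 2 lower (median 0.24), against 18.3% and 14.9% of all genes (median 0.07). GBX2, which sets the hindbrain side of the border, had a signal of 86.3 in RA astrocytes and was at the floor in FGF8 astrocytes and neuroepithelial cells, at least 3.27-fold higher in RA astrocytes than in either. EN1, a midbrain-hindbrain homeobox gene, had 71.4 in RA astrocytes and was at the floor elsewhere, at least 2.71-fold higher, and the FGF feedback inhibitor SPRY2 was 2.42-fold higher. OTX2, which sets the forebrain and midbrain side, had 54 in RA astrocytes, 207 in FGF8 astrocytes and 2545 in neuroepithelial cells, 47.1-fold lower in RA and 12.3-fold lower in FGF8 astrocytes than in neuroepithelial cells. SPRY1 was 2.78-fold lower in RA and 2.67-fold lower in FGF8 astrocytes. In FGF8 astrocytes 0 of 4 compared were higher and 2 lower (median -1.10), against 12.9% and 10.5% of all genes (median 0.05). Between RA and FGF8 astrocytes 3 of 5 were higher and 1 lower (median 1.23), against 9.86% and 7.96% of all genes (median 0.01). Of 11 genes on the array, 5, 7 and 6 were at the floor on both arrays in these comparisons, in the order given. GBX2 and EN1 could enter only through the RA array, where they were high. These counts therefore describe the list and carry no test, and the same holds for bounds in the other lists.

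Partners of PAX proteins, among them the EYA genes, SIX4 and the DACH genes of the eye and placode network and the TLE corepressors, went both ways. Of 12 compared, 1 was higher and 4 lower in RA astrocytes than in neuroepithelial cells (median -0.28), and of 13 compared 2 were higher and 5 lower in FGF8 astrocytes (median -0.62). Over all genes 18.3% were higher and 14.9% lower in RA astrocytes (median 0.07), and 12.9% higher and 10.5% lower in FGF8 astrocytes (median 0.05). DACH1 had a signal of 30.9 in RA astrocytes, 90.7 in FGF8 astrocytes and 1488 in neuroepithelial cells. DACH2 was at least 4.93-fold lower in each astrocyte culture and SIX4 3.11-fold lower in RA and 6.82-fold lower in FGF8 astrocytes. The corepressor TLE2 had 30.3 in RA astrocytes and 433 in FGF8 astrocytes and was at the floor in neuroepithelial cells, and TLE4 had 1676 in RA astrocytes, 490 in FGF8 astrocytes and 2269 in neuroepithelial cells. MEIS1, a homeobox cofactor, was 4.10-fold higher in RA than in FGF8 astrocytes, where 3 of 12 partners were higher and 3 lower (median -0.41), against 9.86% and 7.96% of all genes (median 0.01).

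Genes of dorsal interneurons were lower in 4 of 7 compared in RA astrocytes and higher in 1, and lower in 4 of 7 and higher in 0 in FGF8 astrocytes, with medians of -1.02 and -1.05. Over all genes 14.9% were lower and 18.3% higher in RA astrocytes (median 0.07), and 10.5% lower and 12.9% higher in FGF8 astrocytes (median 0.05). TFAP2B, a dorsal and neural crest factor, had a signal of 265 in RA astrocytes, 44.6 in FGF8 astrocytes and 115 in neuroepithelial cells, which placed the arrays in the same order as PAX3. TFAP2A had 64.5 in RA astrocytes, was at the floor in FGF8 astrocytes and had 131 in neuroepithelial cells. The other called genes of this list were lower than in neuroepithelial cells. ISL1 was at least 9.14-fold lower in each astrocyte culture. LHX2 was 4.64-fold lower in RA and 2.06-fold lower in FGF8 astrocytes, and LHX9 at least 2.24-fold lower in RA astrocytes. Between RA and FGF8 astrocytes, 2 of 4 compared were higher and 1 lower (median 0.44), against 9.86% and 7.96% of all genes (median 0.01). TFAP2B was 5.95-fold and TFAP2A at least 2.45-fold higher there, and LHX2 2.25-fold lower. Of 5 ventral genes compared, 2 were higher and 2 lower in RA astrocytes (median 0.10), and 0 higher and 1 lower in FGF8 astrocytes (median 0.02). In RA against FGF8 astrocytes, 2 of 5 ventral genes were higher and 1 lower (median -0.02). SHH, the ventralising ligand, had 58.8 in RA astrocytes and was at the floor in FGF8 astrocytes and neuroepithelial cells, and NKX2-1, a ventral forebrain gene, was at least 7.08-fold lower in each astrocyte culture. PTCH1 had 300 in RA astrocytes, 648 in FGF8 astrocytes and 976 in neuroepithelial cells. FOXJ1 had 86.2 in RA astrocytes and 26.8, just above the floor, in FGF8 astrocytes, and was at the floor in neuroepithelial cells.

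The remaining lists covered tissues in which PAX genes also act, and their counts stand against 18.3% of all genes higher and 14.9% lower in RA astrocytes (median 0.07), and 12.9% higher and 10.5% lower in FGF8 astrocytes (median 0.05). Of 8 neural crest and melanocyte genes compared, 1 was higher and 3 lower in RA astrocytes, with the endothelin receptor EDNRB, also a gene of astrocytes, 4.35-fold higher and the pigment protein PMEL 14.5-fold lower. In FGF8 astrocytes 0 of 7 were higher and 3 lower, and the medians were -0.38 in RA and -0.85 in FGF8 astrocytes. Of 8 eye genes compared in RA astrocytes, 2 were higher and 5 lower, and of 10 in FGF8 astrocytes likewise 2 were higher and 5 lower, with medians of -1.64 and -0.59. SIX3 and SIX6, factors of the eye field that act beside PAX6, were at least 43.4-fold and at least 11.8-fold lower in each astrocyte culture. RPE65, an enzyme of retinal pigment epithelium, had a signal of 1020 in RA astrocytes and 214 in FGF8 astrocytes and was at the floor in neuroepithelial cells. The other higher eye gene in both was CRYAB, with 2479 in RA astrocytes, 736 in FGF8 astrocytes and 269 in neuroepithelial cells. The lists overlap: OTX2 was also counted among the border genes and LHX2 among the dorsal interneuron genes. In the list for kidney, ear and thyroid, sites of PAX2 and PAX8, 1 of 4 compared was higher and 2 lower in RA astrocytes, and 1 of 3 higher and 2 lower in FGF8 astrocytes, with medians of -0.99 and -2.15. The lower genes in both astrocyte cultures were EMX2, also a cortical factor, at least 55.4-fold, and GATA3, at least 4.44-fold. SALL1 was 2.49-fold higher in RA and 2.75-fold higher in FGF8 astrocytes.

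**Figure D4:**
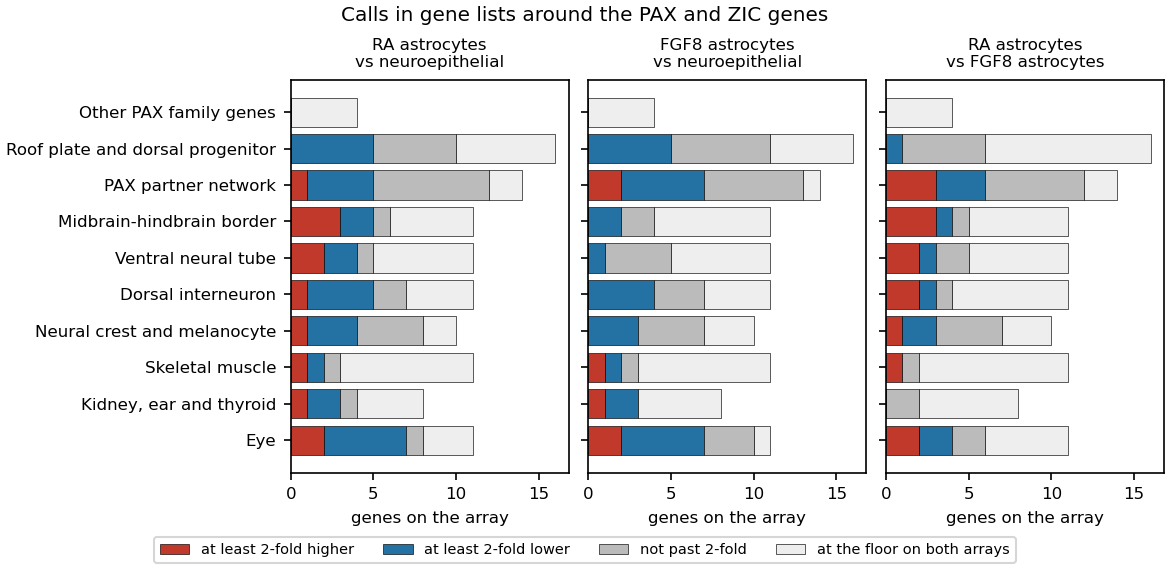
Number of genes on the array (x axis) in each list around the PAX and ZIC genes (y axis), by call in the 3 comparisons, from 1 main probe set per gene. In the roof plate and dorsal progenitor list 0 genes are at least 2-fold higher in any comparison, while 3 midbrain-hindbrain border genes are higher in each comparison of RA astrocytes. GBX2 and EN1 among these are bounds, at the floor on the other array.

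The 2-fold calls that most depended on how the values were read were those near the floor. PAX3, PAX7 and ZIC2 kept their calls between RA astrocytes and neuroepithelial cells, and between RA and FGF8 astrocytes, under all 7 alternatives for a gene's value. PAX6 kept its lower calls in both astrocyte cultures under all 7. Over these alternatives the log2 difference of RA astrocytes from neuroepithelial cells ran from 2.56 to 3.05 for PAX3, from 1.87 to 3.73 for PAX7, from -1.89 to -1.16 for PAX6 and from -5.38 to -4.28 for ZIC2. Not every alternative could move a value. ZIC2 has 1 probe set, above the floor on every array, so a lower floor, no floor and the mean of probe sets repeated its -5.28. The main probe sets of PAX3, PAX7 and ZIC2 are not _x_at or _s_at, so dropping those types left them unchanged.

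**Figure D5:**
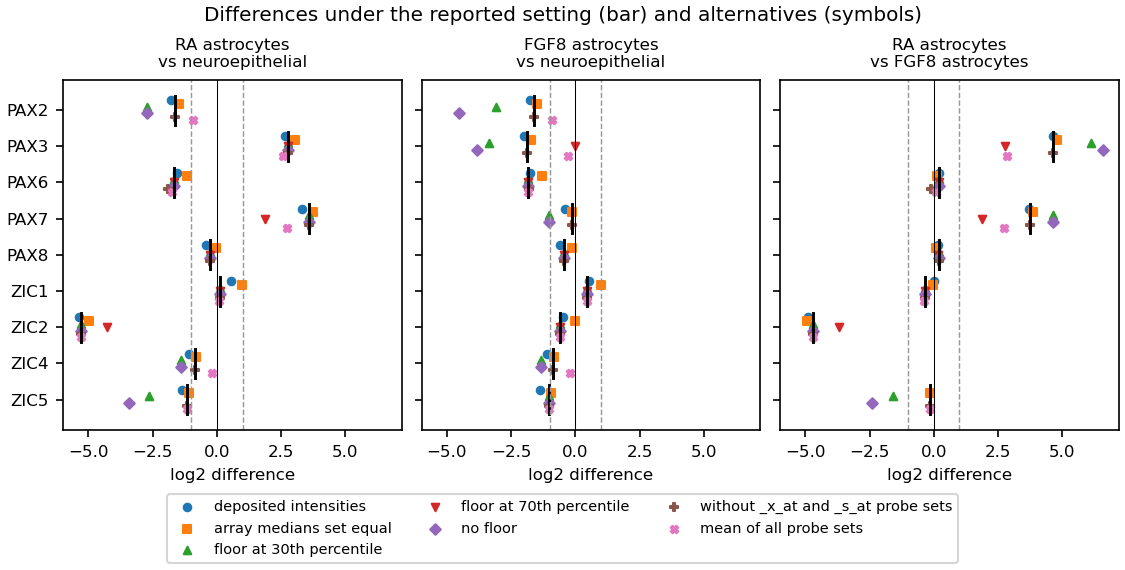
Log2 difference (x axis) of each gene (y axis) in the 3 comparisons under the reported setting (black bar) and each alternative that gave a value (symbols), with dashed lines at 2-fold. The symbols of PAX3, PAX7 and ZIC2 stay outside the lines in both comparisons of RA astrocytes, and those of PAX3 in FGF8 astrocytes against neuroepithelial cells run from -3.84 to -0.02.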

How the data were processed

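Total RNA from 3 cultures was hybridised to 1 Affymetrix array each after biotin labelling at a core facility, per the labels' protocols. The deposited values are linear intensities of 54675 probe sets, which the authors or their core facility had scaled: the mean without the lowest and highest 2% was 150.0 on every array. How probe intensities were summarised is not stated in the labels.

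Probe sets with 1 gene symbol numbered 41091 of 54613 non-control ones (19775 genes), and all 9 member genes were matched in the RefSeq gene table (GRCh38.p14, names only). Because the upper quartiles differed by 0.14 log2 units, over the tolerance of 0.1, arrays were quantile normalized in Python 3.11.15 (numpy 2.4.6), floored at the 50th percentile and brought to log2; the code was tested on simulated data. With 1 array per group, genes were called by size, at least 2-fold. All members are named, with 3 nearest genes for each that spanned at least 2-fold. Up to 4 genes per direction were selected from each list by size, and only some of these are named. The members and lists were chosen with earlier results of these data known. The number of arrays limits the precision.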

Additional observations from a re-analysis of the deposited data

Results flagged for a closer look

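PAX3 moved in opposite directions in the astrocyte cultures relative to neuroepithelial cells: its log2 difference was 2.76 in RA astrocytes and -1.87, a bound, in FGF8 astrocytes. This difference between the cultures was not tested, since each held 1 array. The FGF8 side was -0.02 with a floor at the 70th percentile and -0.28 with the mean of all PAX3 probe sets.

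A probe set annotated to both LOC440982 and ZIC1 (241440_at), left out above because it names several genes, had a signal of 39.6 in RA astrocytes, 308 in FGF8 astrocytes and 123 in neuroepithelial cells. It was 3.11-fold lower in RA astrocytes and 2.50-fold higher in FGF8 astrocytes than in neuroepithelial cells, and 7.77-fold lower in RA than in FGF8 astrocytes, whereas the 2 ZIC1 probe sets above the floor stayed within 2-fold. Which transcript it reads was not tested.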

How the results depend on the processing

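Of 162 values of single genes under the alternatives, 0 turned a called direction. They were 123 that stayed near the reported value and 39 that crossed 2-fold or moved by over 1.5-fold. The 123 include values that an alternative could not move. Counts of called member probe sets depended on the floor and on the size threshold. Of 25 probe sets, 11 lie under the reported floor on all 3 arrays, and others lie close above it. For RA astrocytes against neuroepithelial cells, 2 higher and 5 lower became 4 higher with a floor at the 30th percentile, 3 lower with one at the 70th, 6 higher and 11 lower without a floor, 4 higher at 1.5-fold and 1 lower at 4-fold. For FGF8 astrocytes against neuroepithelial cells, 0 higher and 5 lower became 8 lower with the lower floor, 2 lower with the higher floor, 1 higher and 14 lower without one, 1 higher with array medians set equal and 0 lower at 4-fold. For RA against FGF8 astrocytes, 2 higher and 1 lower became 5 higher and 4 lower with the lower floor, 8 higher and 6 lower without one, and 4 higher and 2 lower at 1.5-fold. The cause of these shifts was not tested beyond the change of floor or threshold itself. Dropping _x_at and _s_at probe sets or using the deposited intensities kept every count within 1.5 times. PAX2 fell short of 2-fold, at -0.91 in both astrocyte cultures, with the mean of its probe sets. PAX7 reached -1.04 in FGF8 astrocytes with the lower floor, and ZIC4 reached -1.09 in both with the deposited intensities. ZIC5 between RA and FGF8 astrocytes was -0.13 as a bound and -1.60 with the lower floor. With array medians set equal, the median of all probe sets compared was 0.22 in RA and 0.31 in FGF8 astrocytes against neuroepithelial cells. The share of higher ones among those past 2-fold became 64.3% against 50.1% as reported in RA astrocytes, and 70.7% against 49.5% in FGF8 astrocytes. No paired analysis was possible because each group held 1 array. Signals near the floor limit PAX2, ZIC4, ZIC5 and the neuroepithelial PAX7 value.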
